A study of Nannochloropsis oceanica with 12 samples.

Results

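The comparison set M2, an RNA interference knockdown line of the carbonic anhydrase CA2, against the wild type (WT) of *Nannochloropsis oceanica* IMET1, a marine oil-forming microalga, at 24 h. It comprised 3 M2_24h and 3 WT_24h libraries of the 12 in the series, all from whole cells under continuous light, and it was fitted on those 6 alone. On the CO2 level the sources differ. The title and design text of the series give 5% CO2 for both lines, while the protocols attached to the samples name a very low CO2 level beside 5% and describe a time course with other groups. No sample label gives a CO2 level of its own, so 5% is taken from the design text. The 12 libraries make up 4 groups of 3, M2 and WT at 12 h and at 24 h after transfer to fresh medium. The design text calls the replicates biological, and whether the 12 h and 24 h aliquots came from the same cultures is not given in the sources used here. M2 is a single line, and the samples used here include no line with an unrelated RNA interference construct. An effect of lowered CA2 therefore cannot be told apart from any other difference between M2 and WT.

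Carbonic anhydrases speed the interconversion of CO2 and bicarbonate. In algae they take part in the uptake of inorganic carbon and in its delivery to Rubisco, the enzyme that fixes CO2, and the carbon-concentrating machinery is generally less active when CO2 is plentiful. RNA interference lowers a transcript by means of small RNAs that match it. The comparison asks which transcripts differ when a carbonic anhydrase is targeted, at high CO2 according to the design text.

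The identifiers give a scaffold and a running number for 9755 of the 9756 genes and a gene name for 1, DGAT1A. The reference gene table, which holds 160 organelle genes, matched 0 of them. The files do not pair identifiers with products, so the level of CA2 itself was not checked, pathways could not be counted, and 2 identifiers are named in each direction. Values are FPKM, fragments scaled to transcript length and to a library's mapped total, which are per length and so can be set beside each other between genes. Each line has its own table, and whether the tables were normalized together is not given in the sources used here.

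In the 24 h cultures the lines differed in many transcripts, mostly by little, and the large differences were mostly falls in M2. Of 9606 genes with a mean of at least 1 FPKM, 2931 were higher in M2 and 2963 were lower (limma, adjusted p under 0.05), which is 61.4% of those tested, or 30.5% higher and 30.8% lower. A change of at least 2-fold, on the log2(scaled FPKM + 1) scale, was reached by 18 of the higher genes and 103 of the lower ones. These are 0.187% and 1.07% of the genes tested, or 1.26% in all. Beyond a fold of 1.5, tested with limma's treat method, 57 genes were higher (0.593%) and 250 were lower (2.6%), 3.2% of the genes tested in all. Under the scaling used, the near balance over all called genes thus gave way to falls as the size of the change grew. The balance itself shifted with the scaling, while the 2-fold genes stayed mostly lower. At an equal FPKM sum 3215 genes were called higher and 2766 lower, with 19 and 92 of them at least 2-fold apart. Quantile normalization, which gives all libraries the same distribution of values, called 3270 higher and 2681 lower, with 22 and 84.

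Most called differences were small. Of the 5894 called genes, 2107 differed by under 1.2-fold and 2855 by 1.2-fold to under 1.5-fold, together with 811 between 1.5-fold and 2-fold, 116 between 2-fold and 4-fold and 5 at 4-fold or more. In the class from 1.5-fold to 2-fold 213 genes were higher and 598 lower in M2, while under 1.2-fold the counts were 1249 higher and 858 lower. The median log2 change was 0.29 among genes called higher and -0.37 among genes called lower. Replicate values of the lines did not overlap for 6381 genes (66.4% of those tested), and this held for 97.2% of the genes called higher and 97.5% of those called lower.

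**Figure D1:**
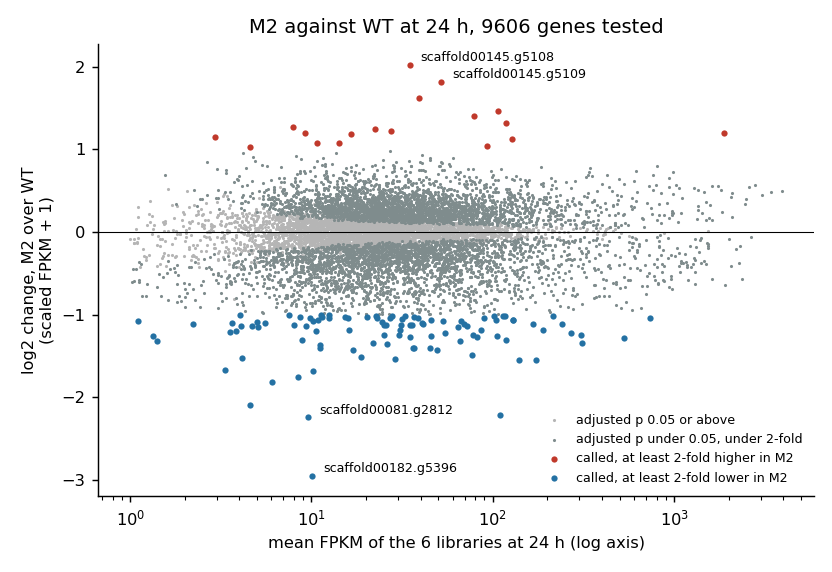
Each point is a gene, with its mean FPKM over the 6 libraries at 24 h on a log axis and its log2 change in M2 over WT on the vertical axis. Red points are the 18 called genes at least 2-fold higher in M2, blue points the 103 at least 2-fold lower, and the 4 named genes are the extremes in each direction.

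These counts rested on how closely the replicates agreed. Between libraries of the same line log2(FPKM + 1) correlated across the 9756 genes at r = 0.996 to 0.9966, and between libraries of different lines at 0.9732 to 0.9747. The SD of the log2 ratio was 0.13 to 0.146 within a line and 0.369 to 0.378 between lines. It was taken on scaled FPKM + 1 of the 9606 genes tested. A fit in which all 11 distinct libraries shared their spread, including the WT library at 12 h that stands apart from all others, called 441 genes, of which 30 changed at least 2-fold. The 2-fold genes numbered 61 with a pseudocount of 5 in place of 1, and 181 with 0.1. A larger constant shrinks the change of low genes more.

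The steepest rises were in a pair of genes with consecutive numbers on the same scaffold. Scaffold00145.g5108 had 59.4, 49.4 and 60.5 scaled FPKM in the M2 libraries, against 13.8, 13.9 and 11.6 scaled FPKM in the WT libraries. Every M2 value lay far above every WT value, and genes were named by size of change only where the lines did not overlap. Its mean was 56.4 ± 6.10 in M2 and 13.1 ± 1.32 in WT (SD, n = 3 each), 4.31-fold higher in M2. On the log2(scaled FPKM + 1) scale the change was 2.03 (adjusted p = 2.65e-08 by limma, SE 0.088).

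Scaffold00145.g5109, the next number, had 80.9, 81.3 and 83.0 scaled FPKM in M2 and 22.1, 21.4 and 23.9 in WT. The M2 libraries were again all above the WT libraries, and the spread within each line was small. Means were 81.7 ± 1.15 in M2 and 22.5 ± 1.29 in WT (SD, n = 3 each), a fold of 3.64 and a log2 change of 1.82 (adjusted p = 6.07e-10 by limma, SE 0.047). The libraries carry no strand, so if these genes overlap, their reads cannot be told apart. Whether they overlap was not tested.

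Scaffold00182.g5396 showed the deepest fall. It had 2.50, 1.29 and 1.04 scaled FPKM in M2, against 17.7, 20.1 and 17.9 scaled FPKM in WT. All M2 values were near the low end of the range tested, and all WT values were several times higher. The mean fell to 1.61 ± 0.780 in M2, against 18.6 ± 1.31 in WT (SD, n = 3 each), a ratio of 0.0866 and a log2 change of -2.94 (adjusted p = 2.27e-07 by limma, SE 0.17). Low values make this size depend on the pseudocount, with log2 changes of -3.54 at 0.1 and -1.84 at 5, both past the threshold.

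Scaffold00081.g2812 was the next deepest, with 3.21, 3.76 and 1.49 scaled FPKM in M2 and 17.8, 15.5 and 16.0 in WT. Its lines did not overlap either, as the naming rule required, and M2 replicate 3 was the lowest of the 6. The mean fell to 2.82 ± 1.18 in M2, against 16.4 ± 1.21 in WT (SD, n = 3 each), a ratio of 0.172 and a log2 change of -2.24 (adjusted p = 5.25e-06 by limma, SE 0.20). With pseudocounts of 0.1 and 5 the log2 change was -2.59 and -1.46. For all 4 named genes the call held when any library was left out.

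**Figure D2:**
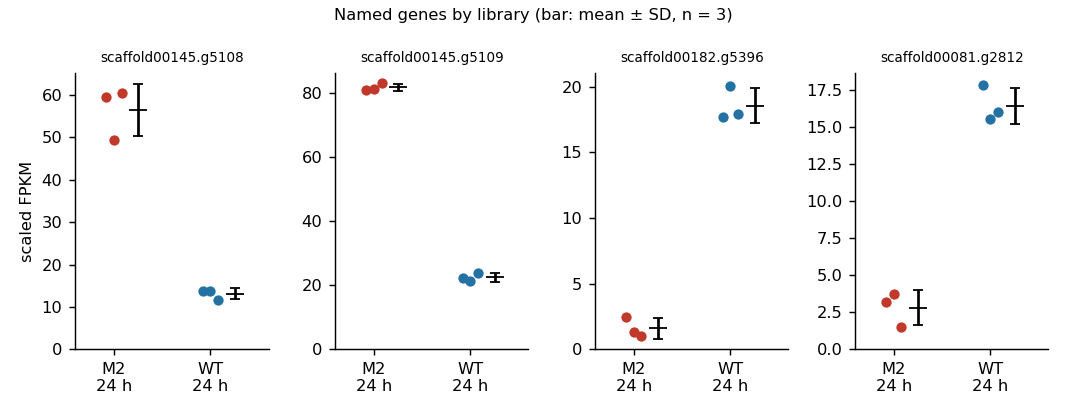
Points are scaled FPKM in each library for the 4 named genes, M2 at the left and WT at the right of each panel, and the bar beside them is the mean ± SD (n = 3). In every panel the 3 M2 values and the 3 WT values do not overlap, which the rule for naming these genes required.

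DGAT1A, the one gene with a name in its identifier, encodes a diacylglycerol acyltransferase, which carries out the last step in making storage oil from diacylglycerol. It had 25.5, 25.0 and 23.3 scaled FPKM in M2 and 23.0, 22.4 and 23.1 in WT. The M2 values lay just above the WT values, and the lowest M2 library nearly met the highest WT one. The log2 change was 0.10 (adjusted p = 0.101 by limma, SE 0.051), which missed the threshold. It passed when M2 replicate 3 was left out (log2 change 0.14, limma adjusted p = 0.0453) and in the fit on 10 libraries at both times (log2 change 0.14, limma adjusted p = 0.0363).

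The genes that differed by at least 2-fold covered a wide range of levels. The 18 higher genes had means between 4.30 and 2627 scaled FPKM in M2 and between 1.58 and 1145 in WT, with medians of 47.5 in M2 and 14.5 in WT. For the 103 lower genes means ran between 0.348 and 480 in M2 and between 1.86 and 989 in WT, with medians of 17.5 in M2 and 38.0 in WT. Summed, the higher set held 3731 scaled FPKM in M2 and 1573 in WT, and the lower set 3889 in M2 and 9072 in WT. A single gene, with 2627 in M2 and 1145 in WT, made up most of the higher set's sums. Of the lower genes, 9 averaged at least 100 scaled FPKM in M2, against 25 in WT. Choosing the genes by their change fixed the direction of these sums and counts. For all 121 genes the replicates of the lines were without overlap, against 66.4% of all genes tested. Their selection by the same values favours this.

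Almost all of the most abundant transcripts were called. Among 183 genes with a mean of at least 500 FPKM, 74 were higher and 104 lower in M2, 97.3% called. Over all genes tested 61.4% were called, 30.5% higher and 30.8% lower. With quantile normalization the split in this class was 78 higher and 91 lower. By at least 1.5-fold 7 of the 183 were higher and 18 lower. Of all 9606 genes tested, 811 were called at 1.5-fold to under 2-fold and 121 at 2-fold or more. Their median log2 change was -0.12, and the median size of the called changes was 0.37 on the log2 scale. The transcript with the highest mean, the same identifier in all 6 libraries, had 4620, 4652 and 4512 scaled FPKM in M2 and 3268, 3309 and 3217 in WT. M2 was the higher line in every library, with a log2 difference of 0.49 (adjusted p = 7.75e-10 by limma, SE 0.013). In this class the largest rise was to 2627 ± 37.7 scaled FPKM in M2, against 1145 ± 14.6 in WT (SD, n = 3 each), a log2 change of 1.2 (limma adjusted p = 1.27e-11). The deepest fall there was to 310 ± 3.87 in M2, against 754 ± 12.4 in WT (SD, n = 3 each), a log2 change of -1.28 (limma adjusted p = 4.2e-11). Both genes have identifiers without names.

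The share of all FPKM held by the 10 most abundant genes of a library was 5.24% ± 0.0324 in M2 and 4.27% ± 0.0219 in WT (SD, n = 3 each). The ranges, 5.20% to 5.27% in M2 and 4.24% to 4.29% in WT, did not overlap. For the top 100 genes the share was 24.3% ± 0.0666 in M2 and 23.4% ± 0.0971 in WT (SD, n = 3 each), again without overlap, and for the top 1000 it was 59.1% in both lines. With 3 libraries against 3 an exact permutation test (2-sided) cannot go below p = 0.1, which the top 10 and top 100 shares reached. Among 8 such library values tested, the adjusted p was 0.114 for these 2 and 0.8 for the top 1000.

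How often a difference was called followed the level of the gene. The called share was 37.8% of 463 genes at 1 to 5 FPKM, 50.7% of 3401 at 5 to 20, 66.1% of 4704 at 20 to 100 and 82.9% of 855 at 100 to 500. The median SE of the log2 change was 0.13 in the lowest of these classes and 0.016 among genes of at least 500 FPKM, so the smallest difference that could be called shrank with level. The number of fragments behind a value is not given. From steps between low values, 1 fragment in M2 replicates 2 and 3 was worth 0.99 and 1.06 times its worth in M2 replicate 1. In WT replicates 1 and 2 it was worth 0.898 and 0.871 times as much, less clearly so in replicate 2. Those libraries would be somewhat deeper if both lines were scaled to mapped totals in the same way, which is not given. For WT replicate 3 the steps gave no clear value.

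At the bottom of the range the direction was one-sided. Of 463 genes at 1 to 5 FPKM, 43 were called higher and 132 lower in M2, while quantile normalization, which gives all libraries the same distribution of values, called 89 higher and 85 lower. A further 148 genes had a mean above 0 and under 1 FPKM and were not tested gene by gene. In these, the M2 mean was the lower one for 139 and the higher one for 9, but with quantile normalization it was lower for 72. Replicates of the lines did not overlap for 77 of the lower genes (52.0% of the 148) and 2 of the higher ones (1.35%), against 33.1% lower and 33.4% higher among the genes tested.

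Summed over those 148 genes, the FPKM as deposited came to 49.5, 49.5 and 47.1 in the M2 libraries, against 101.0, 97.0 and 100.1 in the WT libraries. The M2 sums were all close to each other and less than the lowest WT sum. Their means were 48.7 ± 1.40 in M2 and 99.3 ± 2.08 in WT (SD, n = 3 each), a ratio of 0.490. An exact permutation test (2-sided) gave p = 0.1, the smallest that 3 against 3 allows, and 0.111 after adjustment over the 10 classes tested. In steps of level, the M2 mean was the lower one for 96.9% of 32 genes under 0.25 FPKM, 95.1% of 41 genes at 0.25 to 0.5, 92% of 75 genes at 0.5 to 1, 71.9% of 96 genes at 1 to 2 and 57.0% of 367 genes at 2 to 5. Above that the share lay between 46.9% and 59.0%.

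At 12 h, in libraries that did not enter the 24 h comparison, the M2 mean was the lower one for fewer of these genes. The 148 genes summed to 29.0 and 31.9 FPKM in M2 and 41.3 and 35.3 FPKM in WT, a ratio of 0.795, and the M2 mean was the lower one for 73 of them (49.3%). The others include any genes with equal means, such as 0 in both lines, so this share does not show a balance between the lines. In FPKM as deposited, without scaling between lines, genes at 2 to 20 FPKM leaned to lower means in M2 at 12 h. In the 12 h fit on scaled values 20.8% of genes were called higher and 22.7% lower (limma). Whether the lean by class remains after scaling was not tested. The M2 mean was the lower one for 66.2% of those at 2 to 5 FPKM and 60.9% of those at 5 to 20. The shares at 24 h were 57.0% and 49.7%. The WT sum at 24 h was thus the highest of the 4 groups, for genes chosen by their 24 h mean. More genes were also listed at 0 in M2 at 24 h, with 25, 16 and 21 genes, against 6, 5 and 7 in WT. Only 2 genes were at 0 in all 3 M2 libraries and above 0 in all 3 WT libraries, none with a WT mean over 0.559 FPKM, and 0 showed the opposite pattern. The part that depth, stray reads or scaling have in these low values was not tested.

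**Figure D3:**
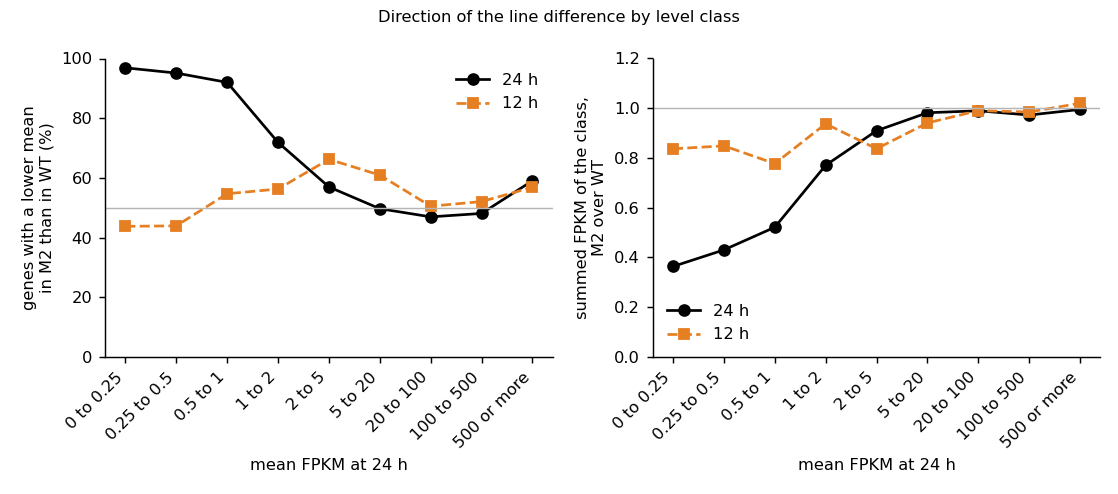
For genes in classes of mean FPKM at 24 h, the left panel gives the percentage with a lower mean in M2 than in WT, and the right panel the summed FPKM of the class in M2 divided by that in WT. Values are FPKM as deposited, without scaling between lines. At 24 h (black circles) the percentage runs from 96.9% in the lowest class to 57.0% at 2 to 5 FPKM, while at 12 h (orange squares) it is 43.8% in the lowest class, 66.2% at 2 to 5 FPKM and 60.9% at 5 to 20.

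The same contrast at 12 h, in 2 M2 and 2 WT libraries that share none with those at 24 h, served to set the 24 h genes beside other data. A further M2 column at 12 h repeats replicate 1 at another scale, and log2 values of WT replicate 3 at 12 h correlated with no other library above r = 0.757, against 0.908 or more among the others, so both were left out. At 12 h 20.8% of 9513 genes were called higher in M2 and 22.7% lower (limma). Of the 18 genes at least 2-fold higher at 24 h, 15 were called higher (83.3%), 0 lower and 3 were not called, with a median log2 change of 0.94 at 12 h and 1.21 at 24 h. Among the 103 at least 2-fold lower at 24 h, 96 could be tested at 12 h, and 75 of them were called lower (78.1%), 4 higher and 17 neither. Over those 96 the median log2 change was -0.88 at 12 h and -1.13 at 24 h. With WT replicate 3 in the 12 h fit 0 genes were called (limma, 663 at an unadjusted p under 0.05).

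**Figure D4:**
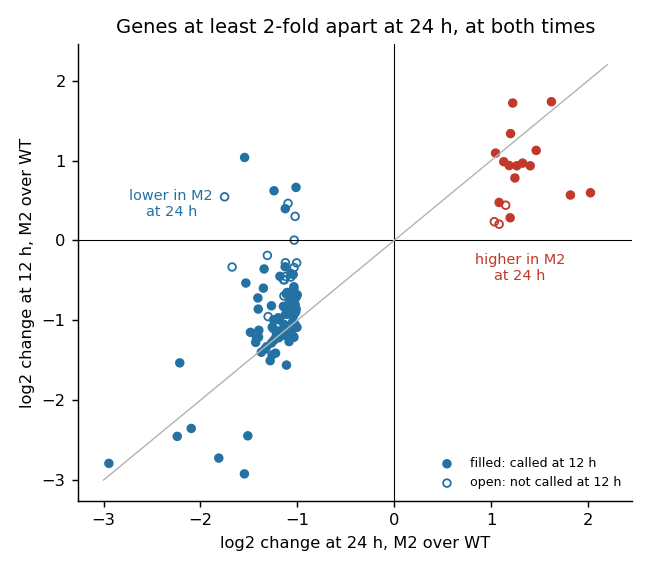
Each point is a gene at least 2-fold apart at 24 h, with its log2 change in M2 over WT at 24 h on the horizontal axis and at 12 h on the vertical axis (red, higher at 24 h; blue, lower; filled, called at 12 h; open, not called), and the grey line marks equal changes. Of the 18 red points 15 are filled and all lie above 0, and of the 96 blue points 75 are called lower at 12 h.

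The named rising pair was also higher in M2 at 12 h. Scaffold00145.g5108 had 160 and 148 scaled FPKM in M2 at 12 h, against 99.4 and 103 in WT, a log2 change of 0.60 (adjusted p = 0.000417 by limma, SE 0.054). Scaffold00145.g5109 had 352 and 348 in M2 at 12 h, against 233 and 238 in WT, a log2 change of 0.57 (adjusted p = 0.000101 by limma, SE 0.032). Both genes were thus higher in M2 at either time. Their levels at 12 h, which were scaled separately, lay above those at 24 h in both lines. In a fit of line and time on 10 libraries, which called 35.7% of 9579 genes, 20.4% with a higher and 15.2% with a lower change at 24 h, the M2 over WT change of scaffold00145.g5108 exceeded its 12 h value by 1.45 at 24 h (adjusted p = 1.02e-05 by limma, SE 0.13). That of scaffold00145.g5109 exceeded it by 1.27 (adjusted p = 8.11e-08 by limma, SE 0.062). The split of that fit between higher and lower changes shifted with the scaling, to 1665 and 1608 genes with quantile normalization.

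The falling pair was also lower in M2 at 12 h. Scaffold00182.g5396 had 1.63 and 0.876 scaled FPKM in M2 at 12 h, against 14.6 and 14.2 in WT, a log2 change of -2.79 (adjusted p = 0.000189 by limma, SE 0.20). Scaffold00081.g2812 had 3.10 and 4.08 in M2 at 12 h, against 21.7 and 26.5 in WT, a log2 change of -2.45 (adjusted p = 0.000133 by limma, SE 0.16). The change at 24 h minus that at 12 h was -0.12 (adjusted p = 0.777 by limma, SE 0.29) and 0.24 (adjusted p = 0.595 by limma, SE 0.32), neither past the threshold. All 4 genes were chosen for their change at 24 h, which favours larger values there. For DGAT1A the 12 h values were 29.4 and 30.4 scaled FPKM in M2 and 25.4 and 24.4 in WT, a log2 change of 0.25 (adjusted p = 0.0359 by limma, SE 0.076). Its change at 24 h minus that at 12 h was -0.13 (adjusted p = 0.235 by limma, SE 0.079), which missed the threshold, so a difference between the times was not shown.

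Line differences were weakly alike between genes with consecutive numbers. The identifiers number genes within scaffolds, and the files give no coordinates, so number is taken as order without a check. Over 8770 pairs of consecutive numbers on a scaffold, the log2 changes correlated at r = 0.17 across pairs, and 55.7% of pairs had changes of the same sign. At distances of 2 to 50 numbers r was between -0.0038 and 0.048, and 49.7% to 52.1% had the same sign. Where both members were called, 60.2% of 3384 consecutive pairs moved in the same direction. The 12 h changes gave r = 0.16 for consecutive numbers and 0.0072 to 0.069 for the greater distances. Pairs share libraries and genes, and overlapping neighbours share reads in libraries without strand, so these correlations are a description.

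Among changes of at least 1.5-fold, 155 consecutive pairs had both members called at that size, and in 139 of them the direction was the same (89.7%), against 68.3% to 78.3% of such pairs at greater distances. Most genes changed by this much were lower in M2, which by itself favours pairs of the same direction. The 155 pairs were 10.2% of the pairs in which at least 1 member changed that much, compared with 4.67% to 6.30% at greater distances. All 9 consecutive pairs with both members at least 2-fold apart moved in the same direction, as did 1 of 1 pair at distance 4, 4 of 4 at distance 10 and 2 of 3 at distance 20, so nothing particular to consecutive numbers is read from the 9. Of runs of consecutive numbers changed at least 1.5-fold in the same direction, 91 of length 2 and 12 of length 3 were lower in M2, and 14 of length 2, 2 of length 4 and 1 of length 5 were higher. The few runs longer than 3 were thus all in the rising direction, while far more genes fell by this much. No expected number of such runs was computed, so this is a description. The 121 genes at least 2-fold apart were spread over 49 of 279 scaffolds, with at most 6 on 1 scaffold, which had 271 genes tested. Median log2 changes of the 33 scaffolds with at least 50 genes tested ranged from -0.12 to 0.089.

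**Figure D5:**
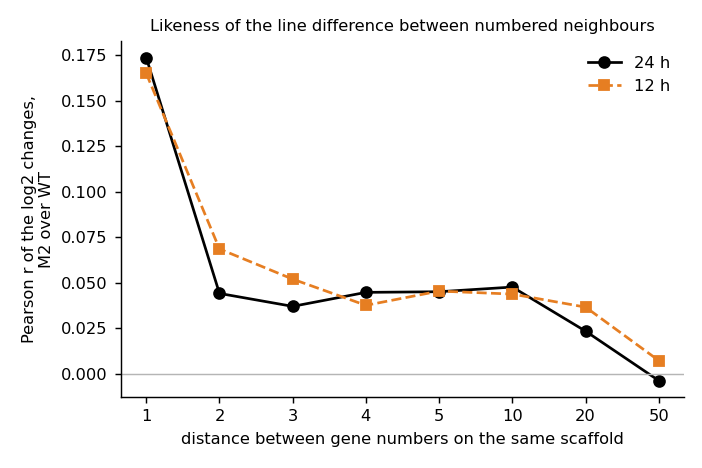
Pearson r across pairs of genes on the same scaffold, between their log2 changes in M2 over WT, by the distance between their numbers. Consecutive numbers have r = 0.17 at 24 h (black circles) and 0.16 at 12 h (orange squares), and greater distances lie at 0.069 or below.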

How the data were processed

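Values are FPKM per gene as deposited by the authors, in a table for each of the 4 groups. The submitters' processing notes list TopHat2 2.0.4 and Cufflinks 2.0.2, while build and annotation are not stated in any source at hand. Per the labels' protocols, libraries were made from polyadenylated RNA without strand. The labels name whole cells but give nuclear RNA as the molecule subtype, and their treatment text describes another layout with a very low CO2 arm, so groups follow the titles. The M2 columns at 24 h are headed MT and were assigned by the table's link to that group. Of the value columns 1 (M2 at 12 h, a repeat) was not used, and merged tables entered no test.

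FPKM were scaled by median-of-ratios factors over the 9715 genes above 0 in all 6 libraries (0.9987 to 1.002). Genes with a mean of at least 1 FPKM were tested on log2(scaled FPKM + 1), which understates changes of low genes, with limma 3.58.1 in R 4.3.3 (intensity trend, 2-sided, Benjamini-Hochberg, threshold 0.05, no replicate block). No count model was fitted, because FPKM are not counts. A limma treat test used a minimum fold of 1.5. The 12 h fit and the fit of line and time were scaled and filtered in the same way on their own libraries. Alternatives were other pseudocounts, filters, scalings, moderation settings, library sets, a replicate block and leaving out each library.

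Named genes were the 2 highest and 2 lowest log2 changes among called genes with a mean of at least 5 FPKM in a line and no overlap, plus DGAT1A. The comparison, gene sets and rules were chosen with earlier results of these data known, and the description of genes under 1 FPKM was added after their values were seen. Abundant genes described without identifiers were also picked by their values. Tables used pandas 2.3.3 and numpy 2.4.6, exact tests scipy 1.17.1 and plots matplotlib 3.10.9, under Python 3.11.15.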

Additional observations from a re-analysis of the deposited data

Results flagged for a closer look

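The difference between M2 and WT was not the same at 24 h and 12 h for 3416 of 9579 genes (35.7%), by the test of line and time on 10 libraries with limma, of which 1958 had the more positive log2 change at 24 h and 1458 the more negative. With WT 12 h replicate 3 in that fit the count was 34. Without it, the split shifted with the scaling, to 2154 and 1292 for FPKM as deposited and 2263 and 1221 at an equal FPKM sum. With quantile normalization the split was 1665 and 1608. Scaffold00145.g5108 had a larger rise in M2 at 24 h by 1.45 on the log2 scale, and scaffold00145.g5109 by 1.27, by the same test. Of the 18 genes at least 2-fold higher at 24 h, 9 had a higher log2 change at 24 h than at 12 h past the threshold and 1 a lower one. Of 100 tested among those at least 2-fold lower, 36 had a lower and 7 a higher log2 change at 24 h. Choosing genes by their 24 h change favours larger changes at 24 h in these counts.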

How the results depend on the processing

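The 5894 called genes at 24 h numbered 5395 to 5981 under every alternative except the fit on all 11 distinct libraries, which gave 441. The 121 genes at least 2-fold apart numbered 61 with a pseudocount of 5 and 181 with 0.1, by construction. They numbered 30 in the 11-library fit, 117 to 129 with a library left out, and 105 to 122 in all other cases. All 121 were called in the same direction under quantile normalization, and 35 of them in the 11-library fit. The 307 genes beyond 1.5-fold became 34 at a minimum fold of 2 and 1848 at 1.2, by construction, and 243 to 281 with a library left out. The median log2 change of all genes tested was 0.0068, and 0.0016 with no filter, 0.011 with a filter at 5 FPKM, 0.0087 for FPKM as deposited, 0.028 at an equal sum, 0.037 with quantile normalization, 0.033 and 0.039 in the fits on 11 and 10 libraries, and 0.0052 to 0.0084 with a library left out. WT 12 h replicate 3, when included, gave 0 genes at 12 h (limma, 663 at an unadjusted p under 0.05, against 4134 called without it) and 34 for the difference between times. Of the 148 genes under 1 FPKM, 133 to 139 were lower in M2 under other scalings and with a library left out, and the ratio of sums was 0.484 to 0.498, but quantile normalization gave 72 and 0.962, since it equalizes the low tail by construction. The cause of the other differences was not tested. With the replicate number as a block 5830 genes were called, 281 beyond 1.5-fold, and no named gene changed its call. Same-numbered libraries of the lines did not deviate together across genes (r = -0.0196, -0.0047 and 0.014). A pairing that touches only some genes would not show in these values and was not tested. The 4 genes named by size of change kept direction and call under all 18 alternatives. Depth in fragments is unknown, and the SE of the log2 change was larger for low genes.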
